A study of Mus musculus with 12 samples.

Results

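The replication-dependent histone genes are the intronless core and linker histone genes that lie together in clusters. Here they were taken as the protein-coding genes whose symbol begins with Hist1h, Hist2h, Hist3h or Hist4h in the RNA-seq tables, which gave 67 of the 21923 protein-coding genes. By cluster, 54 were Hist1 genes, 10 were Hist2, 2 were Hist3 and 1 was Hist4. By type, 18 encoded H2A, 18 H2B, 13 H4, 12 H3 and 6 the linker histone H1.

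RNA-seq and ChIP-seq (chromatin immunoprecipitation followed by sequencing) were compared between mouse embryonic stem cells (mESCs, line E14), which are pluripotent, and NIH3T3 cells, an established line of mouse embryonic fibroblasts. The question of the study was where Ctr9, a core subunit of the elongation factor Paf1C, binds chromatin, and how this relates to paused and elongating RNA polymerase II (RNAPII). Each assay was a single run, so every group below is 1 library, no test between groups was possible and every difference is between 2 libraries. Both lines were grown in the same serum and LIF medium. For Ctr9 ChIP-seq, both lines carried GFP at the end of their own Ctr9 gene and were used as GFP-sorted pools, and an anti-GFP antibody was used. NELFA, a subunit of the pausing complex NELF, was pulled down through GFP in mESCs with a GFP-tagged NELFA transgene, and the same cells gave the RNAPII Ser5p library, which follows initiating and paused polymerase. RNAPII Ser2p, the elongating form, was mapped in mESCs, and H3K27ac, an acetylation mark of active promoters and enhancers, in both lines. The authors deposited 1 list of peaks per pull-down, 7 in all, and 1 table of estimated counts and TPM (a level scaled to the library and corrected for transcript length) per RNA-seq library. The line labels held against the marker genes: all 8 pluripotency genes looked at were higher in the mESC library and all 8 fibroblast genes in the NIH3T3 library. Estimated counts totalled 26400407 and 28849497, and the read depth of the ChIP-seq libraries is unknown.

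These genes supply the bulk of new histones while DNA is being copied, and their transcription rises in S phase at a nuclear structure called the histone locus body, where NPAT activates them. Their mRNAs are the animal mRNAs that do not end in a poly(A) tail. Instead the pre-mRNA is cut just after a short conserved stem-loop, which is bound by SLBP, with the help of the U7 small nuclear ribonucleoprotein. The labels and methods do not say whether the RNA-seq libraries were made from poly(A)-selected RNA, so the TPM of these genes may not follow their transcription, and how far it does was not tested.

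Nearly all of the genes carried the stem-loop in the reference genome. After the stop codons of these genes, the most frequent run of a 6-base stem, a 4-base loop and the complementary stem was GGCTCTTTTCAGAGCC. A match to it with at most 3 mismatches was found within 200 bp after the stop codon in 61 of the 67 genes, and in 38 of them it was exact. The sequence was chosen from these same genes, which favours a high count, and other genes were not searched. The match began 22 to 59 bp after the stop codon. Examples of each histone type follow. They are read from GRCm38 on the strand of the gene, with 5 bases on each side, and the stem-loop itself is in capitals.
Hist1h1a (H1, chr13:23764392-23764407, plus strand): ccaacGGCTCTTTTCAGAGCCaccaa
Hist1h2ao (H2A, chr13:21810898-21810913, plus strand): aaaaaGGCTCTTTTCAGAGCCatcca
Hist1h2ap (H2A, chr13:21833029-21833044, minus strand): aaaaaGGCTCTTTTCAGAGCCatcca
Hist1h2bk (H2B, chr13:22036300-22036315, plus strand): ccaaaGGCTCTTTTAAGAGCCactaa
Hist1h3c (H3, chr13:23745047-23745062, minus strand): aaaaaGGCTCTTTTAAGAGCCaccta
Hist1h4k (H4, chr13:21750150-21750165, minus strand): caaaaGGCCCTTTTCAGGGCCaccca
The exact form was held by 5 H1, 15 H2A, 10 H2B and 8 H3 genes and by no H4 gene. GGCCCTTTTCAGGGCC, in which the stem has another base pair, was held by 8 genes, and all 8 encoded H4. Hist1h2ao and Hist1h2ap, which had the highest TPM of the 67 genes in mESCs and in NIH3T3 cells, were the same over these 26 bases. No match was found at Hist1h4j, Hist1h2bp, Hist1h2bq, Hist1h2br, Hist1h4b and Hist2h2be. The search followed the stop codon of 1 protein-coding transcript per gene, that of highest TPM or, at equal TPM, the longest. The shorter protein-coding transcripts of Hist1h2bp, Hist1h2bq and Hist1h2br (469, 381 and 381 bases) were not searched, so a stem-loop after their stop codons could have been missed.

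The promoters also differed by histone type. RefSeq promoters (GRCm38.p6, 250 bases before to 50 after the start) were matched for 62 of the 67 genes, and 4 short motifs were searched for on both strands. CCAAT was present in every matched promoter of H1 (6), H2A (18), H2B (16) and H3 (10) genes but in 3 of 12 H4 promoters, beside 37.4% of all 32851 promoters in the table. GGTCC, the core of the H4 element, was in 11 of 12 H4 promoters, beside 45.5% of all promoters, and in 1 of 6 H1, 5 of 18 H2A, 5 of 16 H2B and 4 of 10 H3 promoters. The octamer ATTTGCAT, bound by Oct1, was found in 7 of 18 H2A and 6 of 16 H2B promoters and in none of the H1, H3 and H4 promoters, beside 1.74% of all promoters. TATAAA was in 35 of the 62 promoters and in 13.6% of all. A match is only the presence of these letters in the window, and so short a motif as CCAAT or GGTCC is common by its length.

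**Figure D1:**
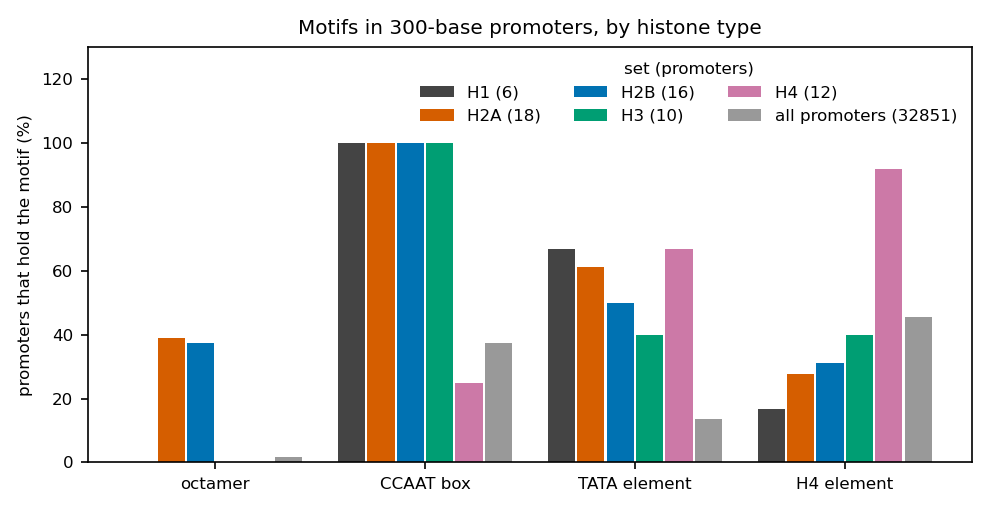
The bars give the percentage of RefSeq promoters (250 bases before to 50 after the start) that hold the octamer (ATTTGCAT), the CCAAT motif, the TATAAA motif or the H4 element (GGTCC) on either strand, for each histone type and for all 32851 promoters. CCAAT was in all H1, H2A, H2B and H3 promoters, GGTCC in 11 of 12 H4 promoters, and the octamer in H2A and H2B promoters alone among the histone types.

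An H1, an H4 and an H2B promoter are given as examples, each over the 120 bases before the RefSeq start, with every match to the 4 motifs in capitals. Hist1h1a is shown because the strongest NELFA peak of the genome lay over its start, Hist1h4k because it had the highest TPM outside the H2A genes, and Hist1h2bg because it shares its octamer with a neighbour. Hist1h1a is the only 1 of the 6 H1 promoters that holds GGTCC, so in this it is not typical of its type. The CCAAT matches of Hist1h2bg lie further upstream than these 120 bases.
Hist1h1a (GRCm38.p6, chr13:23763548-23763667, plus strand): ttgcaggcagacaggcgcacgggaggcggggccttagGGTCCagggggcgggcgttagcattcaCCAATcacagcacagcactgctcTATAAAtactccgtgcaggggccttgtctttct
Hist1h4k (GRCm38.p6, chr13:21750554-21750673, minus strand): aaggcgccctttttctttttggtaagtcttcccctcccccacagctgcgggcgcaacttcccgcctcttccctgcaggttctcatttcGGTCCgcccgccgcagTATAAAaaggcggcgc
Hist1h2bg (GRCm38.p6, chr13:23571280-23571399, plus strand): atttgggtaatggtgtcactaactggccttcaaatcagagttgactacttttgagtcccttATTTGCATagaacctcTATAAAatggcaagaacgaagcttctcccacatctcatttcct
The 13 octamer matches stood at 10 sites, because 3 sites lay between the starts of a divergent pair and were read from both sides. All 6 H2B matches were on the strand of the gene and all 7 H2A matches on the opposite strand. An example is the site between Hist1h2ae and Hist1h2bg at chr13:23571330-23571359, 128 bases before the H2A start and 59 before the H2B start.
Hist1h2ae (minus strand): atagaggttctATGCAAATaagggactcaa
Hist1h2bg (plus strand): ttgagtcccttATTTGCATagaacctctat

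The genes lay in 5 blocks, taken as runs of members less than 200 kb apart. The Hist1 cluster on chromosome 13 formed a block of 23 genes at chr13:21715763-22043676 and another of 31 genes at chr13:23531050-23934851. All 10 Hist2 genes lay at chr3:96219865-96270132. The Hist3 genes Hist3h2a and Hist3h2ba lay at chr11:58948920-58956830, and Hist4h4 stood alone at chr6:136801553-136804415. These coordinates are those of mm10 (GRCm38) in the GENCODE M21 annotation, and 75 of 75 transcripts of the genes matched the genome letter for letter. The longest annotated bodies were those of Hist1h2be (37455 bp, overlapping Hist1h1e), Hist1h2bc (8710 bp) and Hist1h1d (7425 bp), which gives a peak more room. The bodies of Hist1h2br, Hist1h2bq, Hist4h4, Hist2h2be, Hist1h2ac and Hist3h2a were 2146 to 3788 bp, and all others at most 2 kb.

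Most of these genes had low TPM in both libraries, and a few H2A genes held most of the summed level. The highest protein-coding transcript stood for each gene, as in the methods of the study. Summed over the 67 genes, the level was 1249 TPM in mESCs and 388 TPM in NIH3T3 cells. In mESCs, 10 genes were listed at 0, 28 reached 1 TPM and 4 reached 10 TPM. In NIH3T3 cells, 20 genes were listed at 0, 25 reached 1 TPM and 2 reached 10 TPM, and 5 genes were at 0 in both lines. The median gene stood at 0.729 TPM in mESCs and 0.365 TPM in NIH3T3 cells, beside medians of 1.04 and 0.642 TPM over all protein-coding genes, zeros included. Members were above 0 more often, 85.1% of them in mESCs and 70.1% in NIH3T3 cells, beside 71.7% and 64.3% of all genes. The genes held 7720 estimated counts in mESCs and 2709 in NIH3T3 cells. As a share of each library, the first was 3.11 times the second (95% exact binomial interval 2.98 to 3.25, which covers counting error only).

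Of the summed level, 1141 TPM in mESCs and 319 TPM in NIH3T3 cells came from 4 H2A genes of the Hist1 cluster, a set chosen after its values were seen. Hist1h2ao was at 812 TPM (4305 estimated counts) in mESCs and at 0 in NIH3T3 cells. Its neighbour Hist1h2ap was at 0.000497 TPM in mESCs and at 288 TPM (1659 counts) in NIH3T3 cells. The annotated transcripts of this pair share 93.8% of the 31-mers of Hist1h2ao, and 28 of its 450 31-mers occur in no other gene, so which of these genes was expressed in which line is uncertain. Added together, the pair stood at 812 TPM in mESCs and 288 TPM in NIH3T3 cells, a ratio of 2.84 as shares of the libraries by estimated counts (95% exact interval 2.68 to 3.00). Hist1h2ad was at 270 TPM in mESCs and 31.03 TPM in NIH3T3 cells, with 2114 and 259 estimated counts, a ratio of 8.92 as shares of the libraries (95% exact interval 7.84 to 10.2). Hist1h2ah was at 58.6 TPM in mESCs, with 233 estimated counts, and at 0 in NIH3T3 cells. Of its 31-mers 7.47% were its own, against 31.7% for Hist1h2ad, and 88.0% were shared with Hist1h2ad.

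Without these 4 genes the levels of both lines were closer, at 109 TPM in mESCs and 68.9 TPM in NIH3T3 cells over 63 genes. The other 14 H2A genes held 24.1 TPM in mESCs and 20.5 TPM in NIH3T3 cells, and as shares of the libraries their estimated counts had a ratio of 1.02 with an interval (0.819 to 1.27) that includes 1. The 18 H2B genes held 20.2 and 15.6 TPM, the 12 H3 genes 19.3 and 11.7 TPM, the 13 H4 genes 29.2 and 13.9 TPM and the 6 H1 genes 15.7 and 7.12 TPM. Each of these types was higher in the mESC library, by a count ratio of 1.44 for H2B, 1.81 for H3, 1.81 for H4 and 1.56 for H1, and no interval of these reached 1. The H2B ratio rested on Hist1h2bc (104 and 39.7 counts): without it, which was tried once the values were known, the ratio was 1.06 (0.835 to 1.34), and the median difference of the H2B genes that reached 1 TPM was -0.07 on the log2(TPM + 1) scale. The H1 ratio was 4.51 without Hist1h1c, while those of H3 and H4 were 1.93 and 1.89 without their gene of most counts in mESCs. By cluster, Hist1 held 1240 of the summed TPM in mESCs and 382 in NIH3T3 cells, and Hist2 held 7.52 and 4.41. Hist3h2a was at 1.01 and 1.499 TPM and Hist3h2ba at 0.219 and 0 TPM. Hist4h4 was at 0.0720 and 0.203 TPM.

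**Figure D2:**
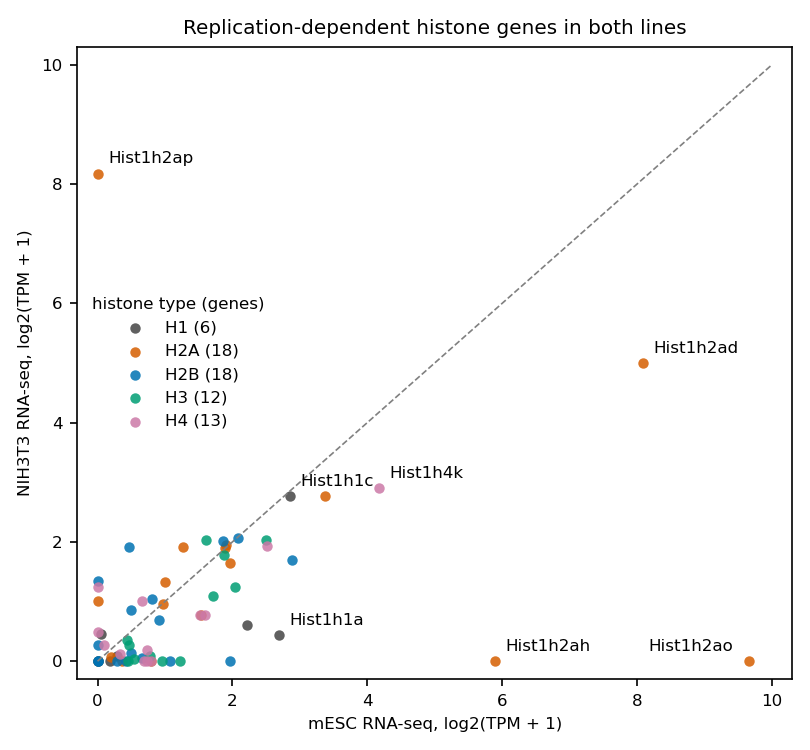
Each point is 1 of the 67 histone genes, with its RNA-seq level in mESCs (x) and in NIH3T3 cells (y) as log2(TPM + 1), coloured by histone type. The dashed line marks equal levels. Most genes sit below 10 TPM in both lines, while Hist1h2ao and Hist1h2ap, which share most of their sequence, sit on opposite axes.

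Counted gene by gene, 35 of the 67 genes reached 1 TPM in at least 1 line. Among them 10 were higher in mESCs by at least 1 on the log2(TPM + 1) scale, beside 24.0% of the 12181 protein-coding genes that passed the same filter. In the other direction 5 were higher in NIH3T3 cells, beside 20.2% of all genes. The counts depended on the measure: on estimated counts scaled to library size they were 6 and 1, and with near-identical genes pooled 10 and 3. Their median difference (mESC minus NIH3T3) was 0.46, beside 0.14 over all genes.

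The 4 largest differences towards mESCs were those of Hist1h2ao, Hist1h2ah, Hist1h2ad and Hist1h1a. Hist1h1a, which encodes a linker histone and whose transcript is 99.7% its own in 31-mers, was at 5.47 TPM in mESCs and 0.355 TPM in NIH3T3 cells. This rested on 57 and 4 estimated counts, a ratio of 15.6 with a wide interval of 5.76 to 59.1. The linker histone gene Hist1h1b, named here after its values were seen, was at 3.64 and 0.518 TPM on 39 and 6 counts. Hist1h1c, another linker histone gene, stood at 6.24 TPM in mESCs and 5.83 TPM in NIH3T3 cells on 191 and 192 counts, the most of any gene outside the 4 H2A genes. Towards NIH3T3 cells, Hist1h2ap was followed by Hist1h2bg, at 0.379 and 2.77 TPM. Hist1h2bl and Hist1h4m came next, each at 0 in mESCs and at 1.54 and 1.36 TPM in NIH3T3 cells on fewer than 10 counts. Hist1h4m shares 91.7% of its 31-mers with Hist1h4n, which was at 0.664 TPM in mESCs and 0 in NIH3T3 cells, so which of these genes was expressed is uncertain.

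The other genes among the 6 highest of each line were Hist1h4k at 17.1 and 6.47 TPM, Hist1h2ai at 9.32 and 5.85 TPM, Hist1h2bc at 6.37 and 2.24 TPM, Hist1h1c, and Hist1h2bp at 3.25 and 3.17 TPM. Counts at this depth were few: 30 genes had at least 10 estimated counts in mESCs and 22 in NIH3T3 cells, and a gene listed at 0 counts may still lie at up to 3 counts, which is 0.114 and 0.104 in counts scaled to library size (CPM). Reads shared by near-identical transcripts add to the uncertainty of single genes. The median gene had 39.8% of its 31-mers to itself, 15 genes had less than 10% and 6 had none (Hist1h2bq, Hist2h2aa1, Hist2h2aa2, Hist2h2bb, Hist2h3b and Hist2h3c1), while H1 genes had a median of 96.2%.

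Where the annotated transcript ended relative to the stem-loop varied, and so did TPM. The annotated end lay within 100 bp after the stem-loop in 21 genes, with a median of 1.11 TPM in mESCs and 1.01 TPM in NIH3T3 cells. In 17 genes the annotation stopped before the stem-loop was complete (medians 1.41 and 0.355 TPM), and in 23 it ran more than 100 bp further (0.405 and 0.203 TPM). All 4 genes with the highest levels ended before or within 100 bp of the stem-loop, and no gene with a longer transcript exceeded 6.37 TPM in mESCs. The longest distances were those of Hist1h2bc (8246 bp along the genome, across an intron), Hist1h1d (4884 bp) and Hist4h4 (2445 bp). A long annotated end lowers TPM for a given number of reads near the stem-loop, and the part of this in the order of the groups was not tested.

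In each of the 7 ChIP-seq lists, the share of these genes with a peak was above the share of all protein-coding genes. A gene was counted when a peak met its body or 1 kb on either side by at least 1 bp. In mESCs, Ctr9 peaks were found at 45 of the 67 genes, beside 39.3% of the 21892 protein-coding genes on the chromosomes. H3K27ac peaks were found at 39 genes, beside 40.4% of all genes. NELFA peaks were found at 46 genes, beside 9.30% of all genes. RNAPII Ser5p peaks were found at 45 genes, beside 11.6%, and RNAPII Ser2p peaks at 37 genes, beside 5.67%. The histone genes stood furthest from the background in the 3 lists that covered few genes, NELFA, Ser5p and Ser2p, with 55.2% to 68.7% of their number against 5.67% to 11.6% of all genes.

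In NIH3T3 cells, Ctr9 peaks were found at 38 of the genes, beside 22.2% of all genes, and H3K27ac peaks at 42, beside 52.2%. Short genes offer less room for a peak, and among the 1613 protein-coding genes of at most 2 kb the shares were lower in all lists but Ser2p: 17.5% for Ctr9, 13.3% for H3K27ac, 5.89% for NELFA, 7.998% for Ser5p and 5.70% for Ser2p in mESCs, and 9.92% for Ctr9 and 17.6% for H3K27ac in NIH3T3 cells. Against these, the histone genes were above the background in each of the 7 lists. Among protein-coding genes of at least 1 TPM in the same line, however, the mESC shares were 66.9% for Ctr9 and 70.9% for H3K27ac. They were 17.2% for NELFA, 21.1% for Ser5p and 9.90% for Ser2p. In NIH3T3 cells they were 39.3% for Ctr9 and 92.7% for H3K27ac. Beside these, all 67 histone genes were level for mESC Ctr9 (67.2%) and lower for H3K27ac in mESCs (58.2%) and NIH3T3 cells (62.7%). In the other lists they were above. The 2 sides were not filtered alike, since 39 of the 67 genes were below 1 TPM in mESCs and 42 in NIH3T3 cells. No share of the histone genes of at least 1 TPM was taken, so this does not place them against expressed genes. The genes are not independent, because neighbours share peaks: the members with a NELFA peak met 33 distinct peaks, those with Ser5p 30 and those with mESC Ctr9 47, and 1 peak reached up to 4 genes.

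**Figure D3:**
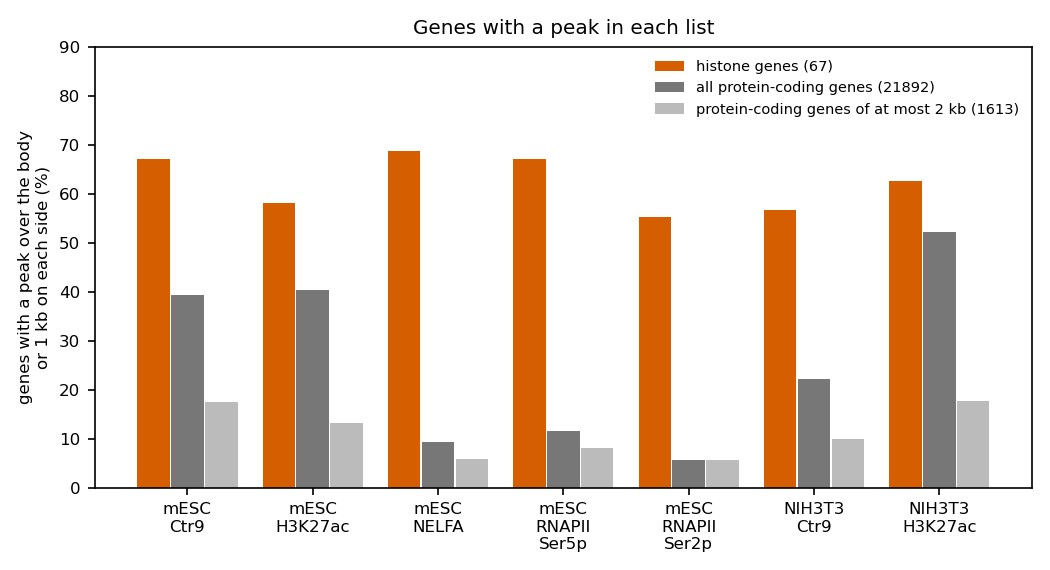
The bars give the percentage of genes with a peak over the body or 1 kb on each side, for the 67 histone genes, for all 21892 protein-coding genes and for the 1613 protein-coding genes of at most 2 kb, in each of the 7 lists. The histone genes lie between 55.2% and 68.7% in every list, while the background varies from 5.67% to 52.2% over all genes.

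Genes of low TPM had peaks too, although TPM may not follow the transcription of the histone genes. A peak in the 1 kb flank can also belong to a neighbour. Of the 39 histone genes below 1 TPM in mESCs, 23 had a NELFA peak, beside 1.29% of all genes below 1 TPM, 22 had a Ser5p peak, beside 1.94%, and 22 had a Ctr9 peak, beside 11.5%. In NIH3T3 cells 19 of 42 histone genes below 1 TPM had a Ctr9 peak, beside 6.20% of all such genes. Genes with and without peaks overlapped widely in level: the 46 genes with a NELFA peak ranged from 0 to 270 TPM with a median of 0.981, and the 21 without it from 0 to 812 TPM with a median of 0.371.

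The marks occurred together. In mESCs 33 of the genes had a peak of all 5 lists, 49.3% of them, beside 2.11% of all protein-coding genes, and 32 had a peak of all 7 lists, beside 1.82%. All 45 genes with a Ctr9 peak also had a Ser5p and a NELFA peak. The converse held but for Hist3h2ba, which had a weak NELFA peak (fold enrichment 4.02) and no other. Every histone gene with a Ser2p peak had peaks of Ctr9, NELFA and Ser5p. For these overlaps between single lists no share of all protein-coding genes was taken, and neighbouring genes shared peaks. The 8 genes with Ctr9 but no Ser2p peak were Hist3h2a, Hist1h4k, Hist1h4h, Hist1h2af, Hist1h2bh, Hist1h4b, Hist1h2ba and Hist1h2aa, which include 3 of the H4 genes.

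The peaks of NELFA, Ser5p and mESC Ctr9 were strong as well as frequent. Fold enrichment, the fragment pileup at the summit over the local background as the authors deposited it, had a median of 14.95 over the NELFA peaks at these genes and 4.97 over the whole NELFA list. For Ser5p the medians were 18.3 and 4.66, and for mESC Ctr9 18.9 and 3.71. Taking the strongest peak of each gene, 2.299% of all genes with a Ctr9 peak reached the median of the histone genes (21.6), and so did 1.72% for NELFA and 2.02% for Ser5p. The other lists differed less, or by 1 of the measures. The median over the Ser2p peaks was 4.79, the same as over the whole list, and for mESC H3K27ac it was 4.33 beside 3.97. For Ser2p, the strongest peak of each gene had a lower median at the histone genes, 4.83 beside 5.32 over all genes with a peak. By the strongest peak of each gene, the histone genes stood near the median of all genes with a peak for H3K27ac in mESCs (5.42 beside 5.38) and in NIH3T3 cells (14.9 beside 14.7). Over all peaks at these genes, however, NIH3T3 H3K27ac had a median of 12.3, beside 6.75 over its whole list. In NIH3T3 cells Ctr9 had a median of 5.88 over the peaks at these genes, beside 4.27, and by the strongest peak of each gene 7.03, beside 5.17. Fold enrichment depends on the depth and background of each library, so its values are not compared between lists or lines.

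The strongest of all 1980 NELFA peaks in the genome lay at the histone gene Hist1h1a. It spanned chr13:23763383-23765014 and had a fold enrichment of 30.5, with its summit 133 bp downstream of the Hist1h1a start. It met only the edge of the window of Hist1h3a. Next at the histone genes came a peak at Hist1h4i and Hist1h2ag (26.9) and one over Hist1h2bl, Hist1h2ai and Hist1h3h (25.7). Of the 10, 50 and 100 strongest NELFA peaks, 5, 17 and 27 were at histone genes, which together hold 1.67% of the list. For Ser5p the numbers were 1, 13 and 22, with 0.668% of the list, and for mESC Ctr9 1, 5 and 14, with 0.105% of the list. None of the 100 strongest H3K27ac, Ser2p or NIH3T3 Ctr9 peaks lay at these genes.

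Ser5p was strongest at the divergent pair Hist1h2ac and Hist1h2bc (28.6), at Hist1h1a (28.2) and at Hist1h4d (25.8). The Hist1h1a peak also reached the window of Hist1h3a, and the Hist1h4d peak that of Hist1h2be. Ctr9 in mESCs was strongest over Hist1h3c and Hist1h2bb (39.7), where 1 peak of 4617 bp spanned both genes, followed by Hist1h1a (31.3) and by Hist1h2ab with Hist1h3b (31.02). Ser2p was strongest at the linker histone gene Hist1h1c (9.06), at Hist1h2ae and Hist1h2bg (8.13) and at Hist1h2bb (8.10). H3K27ac in mESCs was strongest at Hist1h4k (9.42), Hist1h3e (8.75) and Hist4h4 (8.44).

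In NIH3T3 cells, the strongest Ctr9 peak (12.7) met the windows of Hist1h2ae, Hist1h2bg, Hist1h2bf and Hist1h2ad. It was followed by a peak at Hist1h2ad and Hist1h3d (10.9) and by peaks at Hist1h3f, Hist1h4h and Hist1h2be that tied at 9.94. H3K27ac was strongest upstream of Hist1h3c (26.3), at Hist1h4h (25.6) and at Hist3h2a (22.1). The neighbours Hist1h3c and Hist1h2bb thus held the strongest Ctr9 peak of these genes in mESCs and the strongest H3K27ac peak in NIH3T3 cells.

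Peaks ended abruptly at 2 runs of genes. In all, 20 of the 67 genes had no peak in any of the 7 lists, which is 29.9% of them, beside 38.7% of all 21892 protein-coding genes. These 20 were neighbours: all 10 Hist2 genes and 10 consecutive Hist1 genes, from Hist1h1b to Hist1h2br. Around the Hist2 genes no list had a peak between chr3:96196240 and 96413130, a stretch of 217 kb, and around the Hist1 run none between chr13:21753472 and 21865004, 112 kb. The Hist2 stretch was not limited to histone genes. It also held Bola1, at 11.4 TPM in mESCs and 6.54 TPM in NIH3T3 cells, and Fcgr1, at 0 in both. The Hist1 run included Hist1h2ao and Hist1h2ap, whose transcripts had the highest TPM of the 67 genes in mESCs and in NIH3T3 cells, respectively. Among protein-coding genes of at least 100 TPM in mESCs, 3.68% had no peak in any list. The authors removed reads in the ENCODE blacklist of problematic regions before they called peaks. That blacklist was not used here, and whether it covers these stretches was not tested.

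The genes of these runs were also less distinct in sequence. Their transcripts had a median of 7.58% of 31-mers to themselves, beside 46.8% for the other 47 genes, and 11 of 20 had less than 10%, beside 4 of 47. Yet 4 of the 20 had at least 50%, among them Hist1h1b (96.1%), Hist2h2be (97.2%) and Hist2h4 (97.4%), and no peak was listed there either. The part of sequence identity in the missing peaks was not tested. Outside the 2 runs, NELFA was found at 46 of 47 genes, Ctr9 and Ser5p at 45, H3K27ac at 39 and Ser2p at 37 in mESCs, and H3K27ac at 42 and Ctr9 at 38 in NIH3T3 cells. The runs were set by their lack of peaks, so leaving them out raises these shares by construction. No share of all genes was taken in the same way. Hist1h1e alone among these 47 genes had no peak in any mESC list, and it was at 0.0325 TPM in mESCs and 0.365 TPM in NIH3T3 cells.

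**Figure D4:**
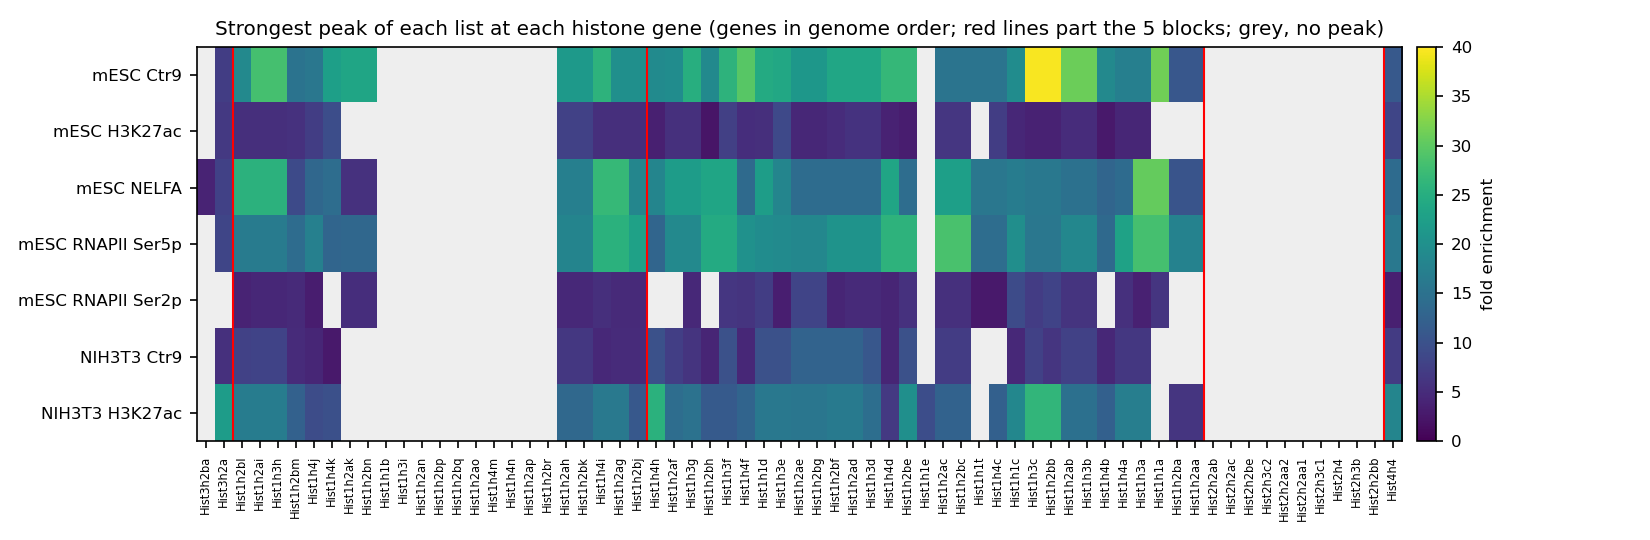
Columns are the 67 histone genes in genome order, rows the 7 lists, and colour the fold enrichment of the strongest peak over the body or 1 kb on each side; grey marks genes without a peak, and red lines part the 5 blocks. The grey runs are the 10 Hist2 genes and the 10 Hist1 genes from Hist1h1b to Hist1h2br.

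By histone type, Ctr9 peaks in mESCs were at 10 of 13 H4 genes, 8 of 12 H3, 12 of 18 H2B, 11 of 18 H2A and 4 of 6 H1 genes, and NELFA peaks differed from these by 1 H2B gene. H1 genes had the fewest H3K27ac peaks in mESCs, 2 of 6, where H4 genes had 10 of 13. Of the 4 H1 genes without one, only Hist1h1b lay in a peak-free run. By block, Ctr9 in mESCs was at 13 of 23 genes of the Hist1 block that holds the peak-free run and at 30 of 31 genes of the other. Of the Hist3 genes, Hist3h2a had peaks in all lists but Ser2p, with fold enrichments of 7.25 for Ctr9, 7.78 for NELFA and 8.34 for Ser5p in mESCs. Hist4h4, at 0.0720 TPM in mESCs, had peaks in all 7 lists, with 11.2 for Ctr9, 13.9 for NELFA and 8.44 for H3K27ac in mESCs.

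Between the lines, Ctr9 was found at fewer of the genes in NIH3T3 cells, and all 38 genes with a peak there had one in mESCs too, beside 82.4% of all genes with an NIH3T3 peak. The NIH3T3 list held 22016 peaks and the mESC list 44748, and with equal numbers of peaks the counts were again 45 in mESCs and 38 in NIH3T3 cells. Of the 45 genes with a Ctr9 peak in mESCs, 38 had one in NIH3T3 cells, beside 46.5% of all genes with a Ctr9 peak in mESCs. The 7 genes with a peak in mESCs only were Hist1h1a, Hist1h1t, Hist1h4c, Hist1h2ak, Hist1h2bn, Hist1h2aa and Hist1h2ba, which include both genes of the divergent pairs Hist1h2ak with Hist1h2bn and Hist1h2ba with Hist1h2aa. Hist1h1t, Hist1h2aa and Hist1h2ba are best known from the testis. Hist1h1t was counted only because the peak over Hist1h4c reached into its 1 kb flank, with the summit outside its window. The genes of each of these divergent pairs shared a single peak, which for Hist1h2aa and Hist1h2bn met the flank but not the body. Of the 7 genes, 6 also had no H3K27ac peak in mESCs, Hist1h4c being the exception. For H3K27ac, all 39 genes with a peak in mESCs had one in NIH3T3 cells, beside 89.9% of all genes with an mESC peak, and Hist1h1e, Hist1h2aa and Hist1h2ba had one in NIH3T3 cells only. The NIH3T3 list was the longer one here, with 34241 peaks and 19417 in mESCs, and with equal numbers of peaks the genes with a peak were 39 in mESCs and 40 in NIH3T3 cells.

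Hist1h1a joined several of these values. In mESCs it was at 5.47 TPM, with fold enrichments of 31.3 for Ctr9, 30.5 for NELFA, 28.2 for Ser5p and 6.23 for Ser2p, and with no H3K27ac peak. In NIH3T3 cells it was at 0.355 TPM, with neither a Ctr9 nor an H3K27ac peak. Hist1h1c, with near-equal TPM in both lines, had Ctr9 and H3K27ac peaks in both (19.4 and 4.38 in mESCs, 4.68 and 18.6 in NIH3T3 cells).

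Along these short genes, most Ctr9 summits lay further from the start than those of NELFA and Ser5p. The strongest peak with its summit within 1 kb of the annotated start was taken for each gene, and distances are positive downstream. In mESCs the median summit lay at 90.5 bp for NELFA (38 genes), 157 bp for Ser5p (37), 167 bp for H3K27ac (37), 482 bp for Ser2p (34) and 490 bp for Ctr9 (37). Over all protein-coding genes with such a summit the medians were 38.0 bp for NELFA, 58.0 bp for Ser5p, 178 bp for H3K27ac, 34.5 bp for Ser2p and 117 bp for Ctr9. The medians of Ctr9 and Ser2p were thus further downstream at the histone genes than over all genes, and that of H3K27ac was close to the median over all genes. The Ctr9 summit lay within 250 bp of the start, on either side, at 1 of 37 histone genes, beside 33.1% of all genes, and the NELFA summit at 26 of 38, beside 75.6%. The 1 gene was Hist1h4k, where the Ctr9 summit stood at 250 bp, the edge of this range.

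Within genes, Ctr9 had its summit downstream of that of NELFA at 27 of 33 histone genes, by a median of 306 bp, while it was downstream at 55.5% of 600 protein-coding genes, by a median of 71.0 bp. It was downstream of the Ser5p summit at 28 of 34 histone genes, by 326.5 bp in the median, beside 54.9% of 922 genes. NELFA and Ser5p summits were close to each other, with a median difference of 11 bp at 33 histone genes and 3.00 bp at 1009 genes. At Hist1h1a, for example, the summits stood at 133 bp for NELFA, 199 bp for Ser5p, 546 bp for Ser2p and 732 bp for Ctr9, in a body of 741 bp. At Hist4h4 they stood at 48 bp for NELFA, 148 bp for Ser5p, 352 bp for Ctr9 and 371 bp for Ser2p. In NIH3T3 cells the median Ctr9 summit was at 340 bp over 35 histone genes, beside 270 bp over all genes. In clusters this dense the strongest summit within 1 kb of a start can belong to a neighbour, and summits upstream of the start are included. The RefSeq start of Hist1h1d lies 1770 bp from the annotated one. Smaller distances occurred too, such as 85 bp at Hist1h2ak and 75 bp at Hist1h2ah, and the RefSeq start of Hist1h4k lies upstream of its annotated start.

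**Figure D5:**
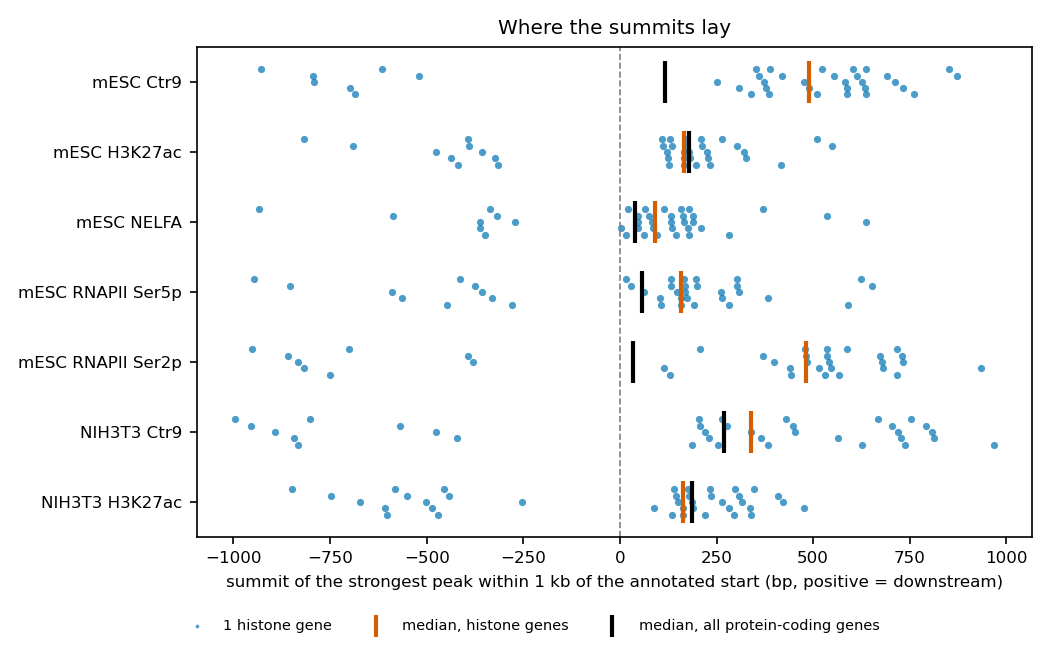
Each point is 1 histone gene, placed at the summit of its strongest peak within 1 kb of the annotated start (x, bp, positive downstream) in each of the 7 lists, and the orange and black bars are the medians of the histone genes and of all protein-coding genes. In mESCs the NELFA and Ser5p points crowd just past the start, and the Ctr9 and Ser2p points lie around 490 and 482 bp.

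Divergent pairs, in which neighbours on opposite strands start within 1 kb and are transcribed away from each other, held 26 of the genes. There were 13 pairs, 12 of an H2A with an H2B gene and 1 of Hist1h2bh with the H3 gene Hist1h3f, and their starts were 176 to 660 bp apart with a median of 268 bp. Although 7 pairs had a NELFA peak, 7 a Ser5p peak and 6 a Ctr9 peak reaching into the stretch between the starts in mESCs, no summit of any mESC list lay there. In NIH3T3 cells 1 Ctr9 summit did, between Hist1h2bh and Hist1h3f.

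The levels of the partners were unequal in the pairs with the highest summed TPM. Hist1h2ao and Hist1h2ap stood next to Hist1h2bq and Hist1h2br, whose protein-coding transcripts were at 0 in both lines and are nearly identical. Transcripts of another biotype (nonsense-mediated decay) held 0.425 TPM of Hist1h2bq in NIH3T3 cells and 0.347 TPM of Hist1h2br in mESCs. Hist1h2ad, at 270 TPM in mESCs and 31.03 TPM in NIH3T3 cells, had Hist1h2bf as its partner, at 2.90 and 0 TPM. Hist1h2ah was at 58.6 and 0 TPM and its partner Hist1h2bk at 2.62 and 3.05 TPM. The H2A partner was thus the higher one in mESCs in these pairs, which were chosen by summed TPM, except that Hist1h2ap was near 0 there. Among the other pairs of an H2A with an H2B gene, both orders occurred in mESCs. Hist1h2bc, Hist1h2bp, Hist1h2bj and Hist2h2be were above their H2A partners, and Hist1h2ai, Hist1h2ae, Hist1h2aa and Hist1h2ak above their H2B partners. The NELFA and Ser5p peaks could not be assigned to 1 partner. The pair of Hist1h2bf and Hist1h2ad shared 1 NELFA peak (14.1) and 1 Ser5p peak (20.6) that reached between the starts, and Hist1h2ah and Hist1h2bk shared peaks of 17.3 and 18.1. H3K27ac in mESCs had separate peaks past each start, with fold enrichments of 5.11 at Hist1h2ad and 2.14 at Hist1h2bf, and of 7.81 at Hist1h2ah and 2.21 at Hist1h2bk.

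The genes that make or serve histone mRNA were present in both lines. Of 22 factors of histone gene transcription and 3′ end formation, all reached 1 TPM in at least 1 line, 2 were higher in mESCs by at least 1 on the log2(TPM + 1) scale and 1 was higher in NIH3T3 cells. The first were Ccne1, a cyclin that drives entry into S phase (101 and 31.4 TPM), and Zfp473, a zinc-finger protein of the U7 complex (13.8 and 0.251 TPM), and the second was Ccne2 (5.91 and 14.4 TPM), the last 2 named after their values were seen. The most abundant, the Sm protein genes Snrpe (413 and 456 TPM), Snrpb (200 and 196 TPM) and Snrpf (109 and 153 TPM), were close between the lines. Of 24 S-phase genes, 8 were higher in mESCs by this measure and 0 in NIH3T3 cells, with a median difference of 0.80. For both lists, the share of all protein-coding genes past the same filter was 24.0% towards mESCs and 20.2% towards NIH3T3 cells. Their median difference was 0.14. Rrm2, a subunit of ribonucleotide reductase, was at 332 and 107 TPM, the replication clamp Pcna at 288 and 159 TPM, and the helicase gene Mcm6 at 256 and 148 TPM.

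The replication-independent histone genes lie outside the clusters, and their mRNAs are as a rule polyadenylated. The 11 genes held 2501 TPM in mESCs and 1915 TPM in NIH3T3 cells, against 1249 and 388 TPM for the 67 clustered genes. H3f3a and H3f3b, which encode H3.3, were at 883 and 576 TPM and at 306 and 431 TPM. H2afz, for H2A.Z, was at 804 and 366 TPM and H2afx, for H2A.X, at 246 and 49.7 TPM. Higher in mESCs by at least 1 on the log2 scale were H2afz, H2afx and H1fx, and higher in NIH3T3 cells H2afj, H2afy2 and H1f0, of which H1fx and the last 3 were named after their values were seen. Over all protein-coding genes past the filter, 24.0% were higher in mESCs and 20.2% in NIH3T3 cells. Ctr9 peaks in mESCs were found at 10 of the 11 genes, while NELFA peaks were found at 3 (H3f3b, H2afz and H1f0), Ser5p at 5 and Ser2p at 4. The shares of all protein-coding genes were 39.3% for Ctr9, 9.30% for NELFA, 11.6% for Ser5p and 5.67% for Ser2p. H2afz had fold enrichments of 31.8 for Ctr9, 14.8 for NELFA and 24.7 for Ser5p in mESCs, within the range at the clustered genes, and its Ser2p peak (21.7) exceeded the strongest at any of the 67 genes (9.06).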

How the data were processed

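The files used were 7 peak lists and 2 transcript tables of mESCs and NIH3T3 cells. Alignment by the authors was to mm10 (Bowtie2 2.3.5.1). After reads in blacklisted regions (ENCODE) had been dropped, MACS2 2.2.6 gave the peaks of each single library, with a cutoff on q of 0.01. Each deposited list gives a score, a fold enrichment (a ratio to the local background) and the −log10 p-value and −log10 q-value of each peak. The transcript tables, deposited from kallisto 0.46.1 (GENCODE M19), hold an estimated count and a TPM for every transcript, and reads that match several transcripts are divided between those. The 3 input libraries were not used here, and ChIP-seq depth is unknown.

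The gene was represented by its protein-coding transcript of highest TPM in each library. Genes with at least 1 TPM in either line were compared on the log2(TPM + 1) scale, and a difference of at least 1 was counted. Intervals are 95% exact binomial and cover counting error only. No test between groups was made, since each has 1 library. Gene bodies came from GENCODE M21 (mm10), promoters from RefSeq GRCm38.p6, and 31-mers from all M21 transcripts. Named were the 6 genes of highest TPM in each line, the 4 with the largest difference in each direction, those with the 3 strongest peaks of each list, all Hist3 and Hist4 genes, the 4 divergent pairs with the highest TPM, the 3 genes with the longest transcript past the stem-loop and up to 4 genes of each other list. Members and lists were chosen with earlier results of these data known.

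Python 3.11.15 with pandas 2.3.3, NumPy 2.4.6, SciPy 1.17.1, pysam 0.24.0 and Matplotlib 3.10.9 were used. The overlap, 31-mer and naming code was tested on simulated data (300 genes and 100 peaks), and 6 of 6 checks passed. Alternatives changed the pseudocount, the filter, the difference required, the transcripts summed, the centring, the threshold on q, the overlap window and the number of peaks.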

Additional observations from a re-analysis of the deposited data

How the results depend on the processing

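No paired analysis was possible because each group has 1 library, and for the same reason no replicate could be left out. The number of histone genes with a peak stayed within 1.5 times of the value reported in all 7 lists under a −log10 q of at least 5, a summit in the window, the body alone, 5 kb on each side and, for Ctr9 and H3K27ac, equal numbers of peaks in both lines. Leaving out the 2 peak-free stretches could not change these numbers, since no gene there had a peak. The ratio of summed TPM (3.22) stayed close under the other scalings and was 1.58 without Hist1h2ao, Hist1h2ap, Hist1h2ad and Hist1h2ah. The 10 genes higher in mESCs became 4 with a difference of at least 2 and 6 on estimated counts scaled to library size. The 5 genes higher in NIH3T3 cells became 1 under each of these, and 3 with near-identical genes pooled. The pooling and the sum without 4 genes were added after seeing the data, as were leaving out the peak-free stretches and the gene of most counts of a histone type. The median difference of 0.46 became 0.56 with a pseudocount of 0.1, 0.33 with no filter on TPM and 0.32 when centred on all genes. The cause of these changes was not tested. Single libraries, few counts per gene and sequences shared between genes limit every gene-level difference, and the blacklisted regions and the depth of the ChIP-seq libraries are not known here.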
